A study of Homo sapiens with 9 samples.

Results

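The transcripts described here are 10 genes of the NF-kappaB response, chosen by name from the 24204 genes of the expression table. They are the subunits NFKB1, NFKB2, RELA and RELB, the feedback inhibitors NFKBIA and TNFAIP3, and the CXC chemokines CXCL1, CXCL2, CXCL5 and CXCL8. RNA-seq was performed on HepG2, a human liver cancer cell line, in 9 libraries of 3 groups with 3 replicates each. All cells were infected with lentivirus for 48 h and selected with puromycin for 48 h in high-glucose medium with 10% serum, carrying a control hairpin (shCtrl) or 1 of the hairpins shTRIB3-1 and shTRIB3-2 against TRIB3, a stress-induced pseudokinase. The controls therefore carried a hairpin vector and the selection as well, and all results come from this single line. The study's methods describe glutamine deprivation of HepG2 cells for RNA-seq, while the labels of these libraries name no withdrawal, so the medium at harvest is uncertain. No source says whether replicates were separate cultures, so p-values measure the spread between these libraries, which may be technical.

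NF-kappaB is a family of dimeric transcription factors. In resting cells the dimers are held in the cytoplasm by inhibitors such as IkappaB-alpha, the product of NFKBIA. Signals from cytokine and pattern-recognition receptors activate the IkappaB kinases, which lead to degradation of the inhibitor and release of dimers such as p50 (from NFKB1) with RELA. A second, slower route runs through the kinase NIK (MAP3K14) and the processing of NFKB2 to p52, the usual partner of RELB. Several targets, among them NFKBIA, TNFAIP3, NFKB1 and the neutrophil-attracting CXC chemokines, are themselves part of the response, and in liver the pathway takes part in the acute-phase and injury responses.

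Of the 10 members, 6 share one exact NF-kappaB motif close to their start sites, and these stretches are shown because they are what the members have in common in sequence. Promoters were matched by symbol to RefSeq on GRCh38.p14, where 9 of 10 members had an entry and RELB had none. The motif GGAATTTCC was searched on both strands in the 250 bases before each start site. It was present in NFKB1, NFKBIA, CXCL1, CXCL2, CXCL5 and CXCL8, 6 of 9 members, and in 117 of 27305 promoters in all (0.428%). Each sequence reads 5′ to 3′ on the strand of its gene, with the motif in capitals, and stops before the first annotated base of the gene.
NFKB1: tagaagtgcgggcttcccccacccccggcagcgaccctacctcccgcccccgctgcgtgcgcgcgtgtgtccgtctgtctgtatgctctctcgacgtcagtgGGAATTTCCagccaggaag
NFKBIA: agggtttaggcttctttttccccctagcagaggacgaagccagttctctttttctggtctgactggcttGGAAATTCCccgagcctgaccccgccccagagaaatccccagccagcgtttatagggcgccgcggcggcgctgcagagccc
CXCL1: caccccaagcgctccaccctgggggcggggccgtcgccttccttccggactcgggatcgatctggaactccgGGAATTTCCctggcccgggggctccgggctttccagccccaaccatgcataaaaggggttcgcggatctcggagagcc
CXCL2: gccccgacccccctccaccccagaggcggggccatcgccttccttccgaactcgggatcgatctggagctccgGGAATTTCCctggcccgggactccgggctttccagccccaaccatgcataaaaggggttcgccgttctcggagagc
CXCL5: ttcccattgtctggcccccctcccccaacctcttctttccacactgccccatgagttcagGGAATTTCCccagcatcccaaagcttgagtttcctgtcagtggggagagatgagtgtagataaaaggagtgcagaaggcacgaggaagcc
CXCL8: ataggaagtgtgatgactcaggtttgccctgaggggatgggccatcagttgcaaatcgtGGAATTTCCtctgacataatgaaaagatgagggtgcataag
The NFKB1 stretch lies at chr4:102501209-102501329 on the plus strand, the NFKBIA stretch at chr14:35404750-35404899 on the minus strand, and the CXCL1 stretch at chr4:73869243-73869392 on the plus strand. The CXCL2 stretch lies at chr4:74099197-74099345 and the CXCL5 stretch at chr4:73998678-73998827, both on the minus strand. The CXCL8 stretch lies at chr4:73740419-73740518 on the plus strand. Counted upstream from the RefSeq start, the motif spanned bases 48 to 40 in NFKB1, 81 to 73 in NFKBIA, 78 to 70 in CXCL1, 77 to 69 in CXCL2, 90 to 82 in CXCL5 and 91 to 83 in CXCL8. The NFKB1 and CXCL8 stretches end 29 and 50 bases before their RefSeq starts, because GENCODE places the gene start further upstream. In NFKBIA the motif was on the opposite strand and reads GGAAATTCC. The looser pattern GGGNNNNNCC, which can overlap the first, was present on either strand in 8 of 9 members and in 53.7% of all promoters. The AP-1 motif TGANTCA was found on either strand in CXCL8 among the members and in 6.6% of promoters, and TATAAA on the gene's strand in CXCL8 and in 7.17%. A match describes letters in the window and not binding. Several members were chosen by name as known NF-kappaB targets, so their share beside that of all promoters is not a test. The CXCL1 and CXCL2 stretches are also much alike around the motif.

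The libraries held 34206726 to 36311029 fragments, as recovered from the deposited values, and the highest total was 1.062 times the lowest. The targeted gene came first, to check the labels. TRIB3 stood at 67.9, 65.8 and 66.6 FPKM (fragments scaled for gene length and for the mapped fragments of the library) in shCtrl, at 34.1, 32.7 and 34.0 with shTRIB3-1 and at 20.6, 20.7 and 20.4 with shTRIB3-2. The 9 hepatocyte markers, including ALB and HNF4A, were each at 1 FPKM or more in every group. Of 7 leukocyte markers, LYZ alone reached that level in every library, CD3E was at 0 in shCtrl and with shTRIB3-1, and the 6 without LYZ summed to at most 1.54 FPKM. LYZ took 1020 to 1145 FPKM in shCtrl, 493 to 523 with shTRIB3-1 and 577 to 616 with shTRIB3-2. CD14, a co-receptor for lipopolysaccharide, was at 0.938 to 1.27 FPKM in shCtrl, 0.245 to 0.284 with shTRIB3-1 and 0.249 to 0.420 with shTRIB3-2. It fell by 1.73 and 1.52 on the log2 scale in a limma fit of all 24204 genes, without a filter on low values (adjusted p = 7.96e-05 and 1.74e-04). Other leukocyte markers went the other way in that fit. ITGAM was higher by 0.58 with each hairpin (adjusted p = 0.0394 and 0.0392), and CD79A by 1.24 with shTRIB3-2 (adjusted p = 0.0228). PTPRC, CSF1R and CD3E did not reach an adjusted p under 0.05. The part of these leukocyte markers in the results was not tested. The 5 endothelial and 6 fibroblast and stellate cell markers summed to at most 0.314 and 0.210 FPKM.

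Of the members, 8 were expressed at 1 FPKM or more in at least 3 libraries and were tested, whereas CXCL1 and CXCL5 were below that level. A gene is said to have risen or fallen at an adjusted p under 0.05, and to be called when the log2 fold change also exceeded 1 in size. With shTRIB3-1, NFKB1, NFKBIA and CXCL2 fell and NFKB2, RELA, RELB and TNFAIP3 rose, so 7 of 8 tested members passed the test, where 74.4% of all 11265 tested genes did. Of these, 4 of 8 were higher, against 32.9% of all genes, and 3 of 8 lower, against 41.5%. With shTRIB3-2, NFKB1, NFKBIA and CXCL2 fell and NFKB2, RELA, RELB, TNFAIP3 and CXCL8 rose, giving 8 of 8 against a background of 75.9%, with 5 higher against 35.4% and 3 lower against 40.5%. Between the hairpins, 4 of 8 tested members were higher with shTRIB3-2 and none was lower at this threshold, against 45.8% of all genes that passed, 25.1% higher and 20.7% lower. CXCL2 alone was called with each hairpin, where 11.5% of all genes were called with shTRIB3-1 and 12.3% with shTRIB3-2, but it had passed the filter only through the control group, where it is high. No tested member was called between the hairpins by limma, where 2.08% of all genes were, while 4 of 8 had an adjusted p under 0.05. The shares that passed in either direction lie near those of all genes. More members than genes in general were higher, and since 8 genes are few and the list was not tested as a set, nothing is read from these counts. The comparisons with shCtrl share its 3 libraries. The median log2 fold change of the 8 tested members was 0.16, 0.34 and 0.09 in the 3 comparisons, beside -0.06, -0.04 and 0.03 over all tested genes.

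**Figure D1:**
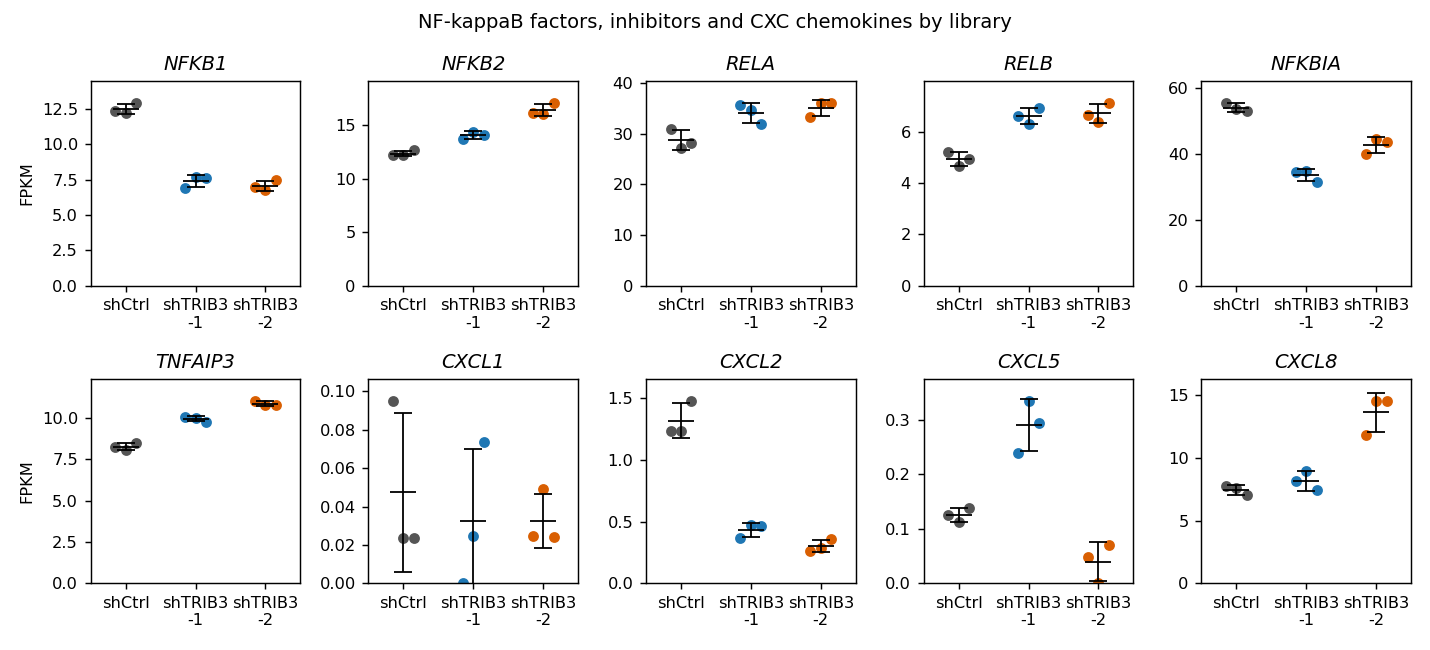
FPKM of the 10 members in each library (points), with the group mean and SD (bars, n = 3), on linear axes that start at 0 and differ between genes. NFKB1, NFKBIA and CXCL2 lie lower with both hairpins than in shCtrl, NFKB2, RELA, RELB and TNFAIP3 lie higher, CXCL8 stands apart with shTRIB3-2, and CXCL5 lies on opposite sides of the control with the hairpins.

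Among the subunits, NFKB1 fell while NFKB2, RELA and RELB rose. NFKB1 encodes p105, the precursor of p50, and lies at chr4:102501330-102617302 on the plus strand (GRCh38, GENCODE v44, as for all gene positions here). It stood at 12.4, 12.3 and 12.9 FPKM in shCtrl, at 6.91, 7.67 and 7.65 with shTRIB3-1 and at 7.01, 6.78 and 7.47 with shTRIB3-2. Every knockdown library was below every control library, and the hairpins overlapped. Its mean was 59.2% of the control with shTRIB3-1 and 56.6% with shTRIB3-2. On the log2(FPKM + 0.1) scale, the changes were -0.75 ± 0.06 (SE, adjusted p = 1.09e-07) and -0.81 ± 0.06 (adjusted p = 4.52e-08). The difference between the hairpins was -0.06, with a 95% interval of -0.18 to 0.06 (adjusted p = 0.379).

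NFKB2, which encodes p100, the precursor of p52, rose in steps across the groups. The gene lies at chr10:102394110-102402524 on the plus strand. Its values were 12.2, 12.2 and 12.6 FPKM in shCtrl, 13.7, 14.4 and 14.1 with shTRIB3-1 and 16.1, 16.04 and 17.1 with shTRIB3-2, and no groups overlapped. The log2 fold change was 0.19 ± 0.04 (SE, adjusted p = 0.00101) with shTRIB3-1 and 0.41 ± 0.04 (adjusted p = 1.38e-06) with shTRIB3-2. The hairpins differed by 0.22 ± 0.04 (adjusted p = 8.53e-04).

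RELA, the transactivating partner of p50, was the most abundant subunit transcript in every library and rose modestly. It lies at chr11:65653599-65663090 on the minus strand. RELA stood at 30.9, 27.1 and 28.1 FPKM in shCtrl, 35.6, 34.6 and 31.9 with shTRIB3-1 and 33.3, 36.0 and 35.9 with shTRIB3-2. All knockdown libraries were above all controls, and the hairpins overlapped. The log2 fold changes were 0.25 ± 0.06 (SE, adjusted p = 0.00151) and 0.29 ± 0.06 (adjusted p = 4.29e-04). Antisense RELA-DT overlaps 1.89% of the exon bases, and the strand setting of the counting is not stated.

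RELB, the partner of p52, rose by about the same amount with each hairpin. The gene lies at chr19:45001461-45038192 on the plus strand, and its values were 5.196, 4.66 and 4.93 FPKM in shCtrl, 6.60, 6.30 and 6.94 with shTRIB3-1 and 6.66, 6.35 and 7.11 with shTRIB3-2. Controls and knockdowns did not overlap, whereas the hairpins did. Its mean was 134% of the control with shTRIB3-1 and 136% with shTRIB3-2, or 0.42 ± 0.06 (SE, adjusted p = 6.29e-05) and 0.44 ± 0.06 (adjusted p = 3.91e-05) on the log2 scale. Between the hairpins the difference was 0.02, with a 95% interval of -0.12 to 0.16 (adjusted p = 0.818).

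The make-up of the subunit pool shifted accordingly. REL, the remaining subunit gene, is not a member and was named after its values were seen. It stood at 2.19 ± 0.04 FPKM in shCtrl, 1.96 ± 0.04 with shTRIB3-1 and 2.06 ± 0.27 with shTRIB3-2 (SD, n = 3), and did not pass the test in any comparison (adjusted p = 0.182, 0.417 and 0.646). Of the summed FPKM of the 5 subunit genes, NFKB1 made up 20.7% ± 0.85 in shCtrl, 11.6% ± 0.81 with shTRIB3-1 and 10.5% ± 0.35 with shTRIB3-2 (SD, n = 3). The share of RELA was 47.3% ± 1.6, 53.1% ± 2.0 and 52.1% ± 1.5 in the same order. NFKB2 made up 20.4%, 22.0% and 24.4%, and RELB 8.12%, 10.3% and 9.96%. In shCtrl the ranges of NFKB1 and NFKB2 overlapped and the ratio of their FPKM was 1.02 ± 0.01. The ratio was 0.526 ± 0.020 with shTRIB3-1 and 0.432 ± 0.008 with shTRIB3-2. These are shares of transcripts, and protein and processing to p50 and p52 were not measured.

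**Figure D2:**
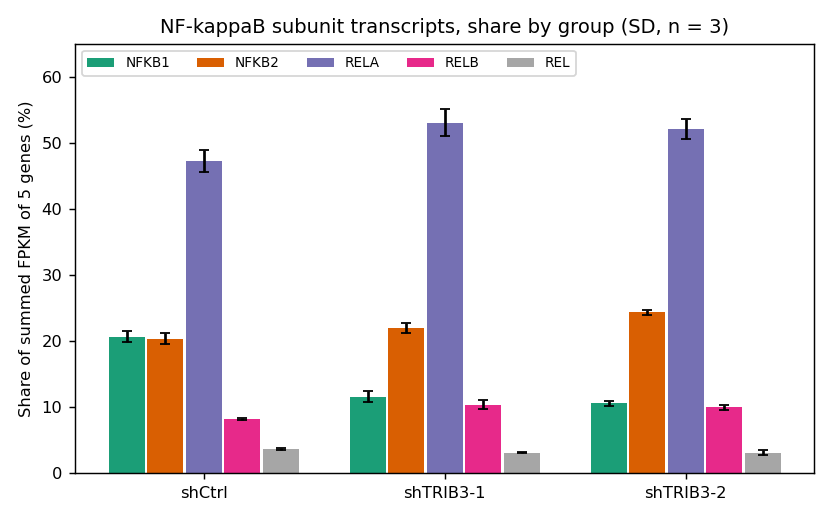
Share of each NF-kappaB subunit gene in the summed FPKM of the 5 subunit genes (percent, bars from 0; mean and SD, n = 3) for each group. The NFKB1 bar falls from 20.7% in shCtrl to 11.6% and 10.5% with the hairpins, below that of NFKB2, while RELA stays the tallest bar.

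The feedback inhibitors moved in opposite directions. NFKBIA, at chr14:35401079-35404749 on the minus strand, was the most abundant member in shCtrl. It stood at 55.5, 53.7 and 52.9 FPKM in shCtrl, 34.4, 34.8 and 31.4 with shTRIB3-1 and 39.9, 44.7 and 43.6 with shTRIB3-2. The groups did not overlap, and shTRIB3-2, the hairpin with the lower TRIB3, lay between the control and shTRIB3-1. The changes were -0.69 ± 0.05 (SE, adjusted p = 8.49e-08) and -0.34 ± 0.05 (adjusted p = 4.62e-05), and the hairpins differed by 0.35 ± 0.05 (adjusted p = 1.31e-04). The ratio of NFKBIA to RELA in FPKM was 1.89 ± 0.09 in shCtrl, 0.985 ± 0.019 with shTRIB3-1 and 1.22 ± 0.02 with shTRIB3-2 (SD, n = 3).

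TNFAIP3 encodes A20, a ubiquitin-editing enzyme that dampens signalling upstream of the IkappaB kinases. It lies at chr6:137867214-137883314 on the plus strand, and antisense WAKMAR2 overlaps 1.47% of its exon bases. Its values were 8.25, 8.08 and 8.52 FPKM in shCtrl, 10.1, 10.0 and 9.79 with shTRIB3-1 and 11.1, 10.8 and 10.8 with shTRIB3-2, with no overlap between groups. TNFAIP3 rose by 0.26 ± 0.04 (SE, adjusted p = 7.57e-05) and 0.39 ± 0.04 (adjusted p = 2.18e-06) on the log2 scale. The difference between the hairpins was 0.13 ± 0.04 (adjusted p = 0.0226). It missed the threshold, at a like size, when libraries were median-centred (0.10, adjusted p = 0.0686), without shTRIB3-1 replicate 3 (0.11, 0.0775) and without shTRIB3-2 replicate 1 (0.12, 0.0762).

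The 4 chemokines are ligands of CXCR2, and CXCL8 also binds CXCR1. They lie in one cluster on chromosome 4, where CXCL1, CXCL5 and CXCL2 start 128.9, 258.2 and 358.7 kb from the start of CXCL8. Levels differed widely along the cluster, and CXCL8 was the one member chemokine above 2 FPKM. CXCL6 and CXCL3, non-members at 96.1 and 298.3 kb, had at most 1 and 4 fragments in any library.

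CXCL2, at chr4:74097040-74099196 on the minus strand, showed the largest change of the tested members. It stood at 1.23, 1.24 and 1.48 FPKM in shCtrl (49, 50 and 59 fragments), 0.367, 0.471 and 0.464 with shTRIB3-1 (14, 18 and 18) and 0.262, 0.284 and 0.358 with shTRIB3-2 (10, 11 and 14). Both knockdowns were below every control library, at 33.0% and 22.9% of its mean. CXCL2 passed the filter through the control libraries alone, so that the filter favoured a fall, and the fit of all 24204 genes, which has no filter, is given for it. In that fit the changes were -1.41 ± 0.16 (SE, adjusted p = 1.03e-04) and -1.82 ± 0.16 (adjusted p = 1.84e-05), called with each hairpin where 8.26% and 8.02% of all genes were. Both calls held with each of the 9 libraries left out, at -1.31 to -1.46 and -1.74 to -1.92. In the filtered fit the adjusted p values were 6.69e-06 and 5.79e-07, and leaving out any 1 control replicate removed the gene from the tested set. The libraries of the hairpins did not overlap, but their difference of -0.41 (95% interval -0.78 to -0.05) had an adjusted p of 0.112 in the fit of all genes and of 0.0554 in the filtered fit. In the filtered fit it was 0.0469 with a replicate block, 0.0447 with median-centring, 0.0388 without shTRIB3-1 replicate 1 and 0.0367 without shTRIB3-2 replicate 3. With a pseudocount of 1 the changes were -0.69 and -0.83 and the gene was no longer called. Of its 75-base words, 7.56% also occur in CXCL3 or CXCL1, so part of its fragments cannot be assigned with certainty.

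CXCL8, which encodes interleukin-8, rose with shTRIB3-2 and differed between the hairpins. The gene lies at chr4:73740519-73743716 on the plus strand. Its values were 7.79, 7.63 and 7.04 FPKM in shCtrl, 8.15, 9.003 and 7.42 with shTRIB3-1 and 11.9, 14.6 and 14.5 with shTRIB3-2. Libraries of shTRIB3-1 overlapped the controls, and those of shTRIB3-2 were above all others. The change with shTRIB3-1 was 0.12, with a 95% interval of -0.06 to 0.31 (adjusted p = 0.209). With shTRIB3-2 it was 0.85 ± 0.09 (SE, adjusted p = 1.84e-06), a mean 182% of the control, and the hairpins differed by 0.73 ± 0.09 (adjusted p = 3.44e-05). The summed hepatocyte markers were also highest with shTRIB3-2, at 10815 to 11129 FPKM against 8381 to 9034 in shCtrl and 8601 to 9040 with shTRIB3-1. ALB was the largest of them, at a mean of 5213 FPKM in shCtrl and 6645 with shTRIB3-2. Singly, 5 of the 9 markers rose with shTRIB3-2 against shCtrl and 2 fell. Those that fell were FGB (-0.47, adjusted p = 1.35e-06) and APOB (-0.10, adjusted p = 0.0186). The part of these markers in the CXCL8 result was not tested. In bulk RNA, fewer cells of a type and less RNA per cell cannot be told apart. The ratio of CXCL8 to CXCL2 in FPKM was 5.76 ± 0.87 in shCtrl, 19.1 ± 3.1 with shTRIB3-1 and 45.8 ± 5.4 with shTRIB3-2 (SD, n = 3). It includes the fall of CXCL2, which had only 14 to 18 fragments a library with shTRIB3-1 and 10 to 14 with shTRIB3-2.

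CXCL5, at chr4:73995642-73998677 on the minus strand, was scarce and went in opposite directions with the hairpins. It stood at 0.126, 0.113 and 0.138 FPKM in shCtrl (11, 10 and 12 fragments), 0.240, 0.335 and 0.295 with shTRIB3-1 (20, 28 and 25) and 0.0480, 0 and 0.0702 with shTRIB3-2 (4, 0 and 6). The groups did not overlap. Being below the filter, it was tested in a fit of all 24204 genes, in which 41.3%, 40.4% and 21.1% of genes passed in the 3 comparisons and 1.72% were called between the hairpins. The changes were 0.78 ± 0.20 (SE, adjusted p = 0.0124) and -0.73 ± 0.20 (adjusted p = 0.018), and the hairpins differed by -1.51 ± 0.20 (adjusted p = 9.49e-04). The change with shTRIB3-1 was as large or larger but missed the threshold on TPM (0.95, adjusted p = 0.0722) and on recovered fragments with voom (1.17, 0.0857), and that with shTRIB3-2 missed it without shCtrl replicate 3 (-0.69, 0.0568). The difference between hairpins passed under each alternative run, at -0.31 to -3.34. An antisense gene, ENSG00000287037, overlaps 17.3% of the exon bases of CXCL5, and its reads can be told apart only if the counting used the strand, which is not stated.

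CXCL1, at chr4:73869393-73871308 on the plus strand, was at or near the limit of detection. It had 4, 1 and 1 fragments in shCtrl, 0, 1 and 3 with shTRIB3-1 and 1, 2 and 1 with shTRIB3-2, or at most 0.0952 FPKM. Sums over the groups were 6, 4 and 4 fragments. A count of 0 allows up to 3 fragments, or 0.0714 to 0.0747 FPKM here, so a difference was not detectable at this depth and no fold is given. Such limits cover counting error only, since fragments carried no molecular identifiers.

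**Figure D3:**
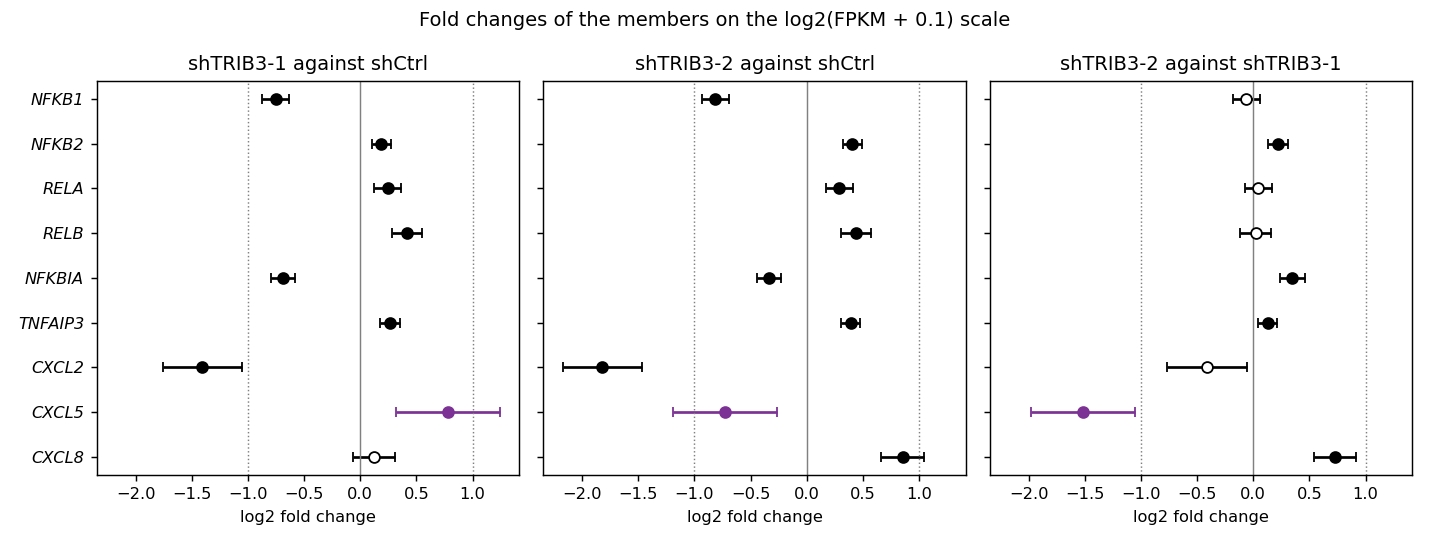
Log2 fold changes of 9 members (points, with 95% intervals) in the 3 comparisons, on the log2(FPKM + 0.1) scale. Filled points passed an adjusted p of 0.05, purple marks CXCL5 from the fit of all genes, dotted lines mark a change of 1, and CXCL1 is left out for its few fragments. CXCL2 lies past the line at -1 with both hairpins, and CXCL5 lies on opposite sides of 0.

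The order of levels changed with these shifts. In shCtrl the order from high to low was NFKBIA, RELA, NFKB1, NFKB2, TNFAIP3, CXCL8, RELB, CXCL2, CXCL5 and CXCL1, and of the neighbours NFKB1 and NFKB2 alone overlapped in their ranges. In shTRIB3-1, RELA and NFKBIA overlapped at the top, and NFKB1 had come to lie between CXCL8 and RELB, overlapping both. In shTRIB3-2, CXCL8 had moved up to rank 4, above TNFAIP3, NFKB1 overlapped RELB, and CXCL5 overlapped CXCL1. The ranks depend on the gene length behind each FPKM. For TNFAIP3 this length was 8616 bases, against 6443 exon bases in GENCODE v44, and for NFKB1 4464 against 15679. Over all 9 libraries, the tested non-members whose log2 values most resembled those of CXCL2, the member with the widest range, were PTP4A1 (Pearson r = 0.996), LY6E (0.994) and RCC1 (0.993). The correlations are descriptions over libraries that share groups, and they ignore the size of a change. Mean FPKM in shCtrl, shTRIB3-1 and shTRIB3-2 was 162.7, 144.4 and 140.5 for PTP4A1. In the same order it was 10.7, 3.73 and 2.82 for LY6E and 48.6, 34.8 and 31.7 for RCC1.

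A group of 5 lists of other genes of the pathway were read beside the members. They held 98 genes, 89 of which were in the table and 59 tested. With shTRIB3-1, 24 of 59 rose and 20 fell, with shTRIB3-2, 32 rose and 17 fell, and between the hairpins 26 were higher and 7 lower with shTRIB3-2. Over all tested genes, 32.9% rose and 41.5% fell, 35.4% rose and 40.5% fell, and 25.1% were higher and 20.7% lower in the same comparisons. Their median log2 fold changes were 0.00, 0.18 and 0.13. With shTRIB3-1, 1 gene was called, 6 with shTRIB3-2 and 2 between the hairpins, beside the shares of 11.5%, 12.3% and 2.08% of all genes. The count with shTRIB3-1 was 2 without shTRIB3-1 replicate 2. The count between the hairpins was 1 without shTRIB3-1 replicate 2 or 3 or any 1 replicate of shTRIB3-2.

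Of 15 other Rel, IkappaB and IKK genes, 14 were tested. With shTRIB3-1, 6 rose and 2 fell, and with shTRIB3-2, 8 rose and 3 fell, with medians of 0.04 and 0.25. Named after their values were seen, NFKBIZ, NFKBIB and TNIP1 show both directions. NFKBIZ, an atypical nuclear IkappaB that co-activates secondary NF-kappaB targets, fell from 3.99 ± 0.14 FPKM to 2.31 ± 0.12 and 2.37 ± 0.18 (SD, n = 3), by 0.76 (adjusted p = 1.94e-06) and 0.73 (adjusted p = 2.55e-06) on the log2 scale. NFKBIB, which encodes the cytoplasmic inhibitor IkappaB-beta, rose from 9.88 ± 0.52 FPKM to 14.4 ± 1.0 and 12.7 ± 0.4, or 0.54 (adjusted p = 2.50e-06) and 0.36 (adjusted p = 8.25e-05). TNIP1, which binds A20, rose from 11.5 ± 0.5 to 16.3 ± 0.4 and 14.7 ± 0.2 FPKM, or 0.50 (adjusted p = 2.40e-07) and 0.35 (adjusted p = 6.27e-06). NFKBID, below the filter and also named after its values were seen, had 39 to 50 fragments a library in shCtrl. It had 17 to 21 with shTRIB3-1 and 4 to 13 with shTRIB3-2. In the limma fit of all genes it fell by 0.70 (adjusted p = 0.0117) and 1.21 (adjusted p = 5.22e-04), called with shTRIB3-2.

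The 31 receptors and adaptors upstream had 25 tested genes, of which 9 rose and 10 fell with shTRIB3-1 and 11 rose and 7 fell with shTRIB3-2 (medians -0.06 and 0.09). MAP3K14, the kinase NIK of the route to p52, rose from 1.78 ± 0.05 FPKM to 3.54 ± 0.13 and 3.84 ± 0.11 (SD, n = 3). On the log2 scale this was 0.95 ± 0.07 (SE, adjusted p = 5.91e-08) and 1.06 ± 0.07 (adjusted p = 1.80e-08), called with shTRIB3-2. TNFRSF12A, the TWEAK receptor Fn14, rose from 64.0 ± 8.0 FPKM to 105 ± 1 and 134 ± 7, or 0.72 ± 0.07 (adjusted p = 1.39e-06) and 1.08 ± 0.07 (adjusted p = 3.24e-08), and the hairpins differed by 0.35 ± 0.07 (adjusted p = 0.00162). IL1R1, the signalling receptor for interleukin-1, was named after its values were seen and fell from 16.3 ± 0.1 to 11.3 ± 0.2 and 12.3 ± 0.3 FPKM, by 0.53 (adjusted p = 4.90e-08) and 0.40 (adjusted p = 5.30e-07). In these 3 genes no knockdown library overlapped the controls. TRAF5, below the filter and named after its values were seen, had 6 to 13 fragments a library in shCtrl. It had 60 to 72 with shTRIB3-1 and 51 to 69 with shTRIB3-2. In the limma fit of all genes it was called higher with each hairpin, by 1.33 (adjusted p = 4.66e-05) and 1.24 (adjusted p = 7.05e-05).

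Other known NF-kappaB targets also moved both ways. Of 32 on the list, 19 were tested, of which 9 rose and 7 fell with shTRIB3-1 and 12 rose and 7 fell with shTRIB3-2 (medians 0.10 and 0.35). Between the hairpins, 14 of 19 were higher and 1, CSF1, lower with shTRIB3-2, beside 25.1% and 20.7% of all genes. All 6 genes called in any comparison of the filtered fit were higher in it, but for BCL2A1 and PLAU among them the filter favoured a rise. Calls over all genes were not counted by direction, so nothing is read from this count. LCN2, a listed target below the filter, was named after its values were seen and went the other way. It had 11 to 15 fragments a library in shCtrl, 0 to 1 with shTRIB3-1 and 1 to 3 with shTRIB3-2. In the fit of all genes it was called lower with each hairpin, by 2.28 (adjusted p = 1.84e-05) and 1.68 (adjusted p = 1.22e-04). CCL20, a chemokine for CCR6-bearing lymphocytes, rose from 73.6 ± 4.0 FPKM to 137 ± 3 and 156 ± 9 (SD, n = 3), or 0.90 ± 0.05 (SE, adjusted p = 4.23e-09) and 1.08 ± 0.05 (adjusted p = 6.92e-10). LIF, a cytokine of the interleukin-6 family, rose from 6.56 ± 0.14 to 12.9 ± 0.3 and 14.8 ± 0.3 FPKM, or 0.96 and 1.16 (adjusted p = 6.58e-10 and 9.80e-11). SDC4, the heparan sulfate proteoglycan syndecan-4, rose from 63.9 ± 1.5 to 121 ± 3 and 159 ± 2 FPKM, or 0.92 and 1.31 (adjusted p = 1.11e-10 and 4.46e-12). CSF1, a macrophage growth factor, rose from 4.26 ± 0.08 to 9.10 ± 0.92 and 7.98 ± 0.19 FPKM, or 1.07 and 0.89 (adjusted p = 2.27e-08 and 1.06e-07). The difference of CSF1 between the hairpins, -0.18 (adjusted p = 0.0412), was lost without shTRIB3-1 replicate 1 or 2 or any 1 replicate of shTRIB3-2, at adjusted p of 0.0587 to 0.177.

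BCL2A1 and PLAU passed the filter through the libraries of shTRIB3-2, where they are high, BCL2A1 with 1 library of shTRIB3-1 besides, so their values are given from the fit of all genes. BCL2A1, an anti-apoptotic BCL2 relative, had 0.344 ± 0.108 FPKM in shCtrl, 0.707 ± 0.366 with shTRIB3-1 and 2.01 ± 0.24 with shTRIB3-2 (SD, n = 3), from 8 to 65 fragments a library. It was 2.27 ± 0.31 higher with shTRIB3-2 than in shCtrl (SE, adjusted p = 2.97e-04) and 1.47 ± 0.31 higher than with shTRIB3-1 (adjusted p = 0.00928), and both calls held with each of the 9 libraries left out. With shTRIB3-1 its libraries overlapped the controls, and the change of 0.80 (adjusted p = 0.0703) ranged from 0.45 without shTRIB3-1 replicate 1 to 1.07. PLAU, the urokinase gene, had 0.736 ± 0.183 FPKM in shCtrl, 0.539 ± 0.140 with shTRIB3-1 and 1.16 ± 0.08 with shTRIB3-2. It was higher by 1.00 ± 0.21 with shTRIB3-2 than with shTRIB3-1 (adjusted p = 0.0101), and 0.87 to 1.17 with a library left out, past a change of 1 in 6 of 9.

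The targets that fell in the filtered fit were the same 7 with each hairpin, named after their values were seen. They were C3, CFB, ICAM1, SOD2, IRF1, CX3CL1 and EFNA1. C3, the central complement component, fell from 401 ± 6 FPKM to 210.4 ± 6.2 and 229 ± 8 (SD, n = 3), by 0.93 (adjusted p = 2.17e-10) and 0.81 (adjusted p = 5.92e-10). CFB, complement factor B, fell from 100.4 ± 6.9 to 57.0 ± 3.6 and 85.2 ± 1.0 FPKM, by 0.82 (adjusted p = 2.90e-08) and 0.24 (adjusted p = 0.00126), and the hairpins differed by 0.58 (adjusted p = 3.59e-06). ICAM1, an adhesion molecule for leukocytes, fell from 40.8 ± 0.8 to 27.8 ± 0.2 and 32.2 ± 1.1 FPKM, by 0.55 (adjusted p = 1.71e-08) and 0.34 (adjusted p = 1.23e-06). SOD2, the mitochondrial superoxide dismutase, fell from 26.3 ± 1.4 to 19.5 ± 0.4 and 20.3 ± 0.4 FPKM, by 0.42 (adjusted p = 1.43e-06) and 0.37 (adjusted p = 4.82e-06). IRF1, a transcription factor of the interferon response, fell from 4.77 ± 0.25 to 2.57 ± 0.26 and 2.87 ± 0.16 FPKM, by 0.87 and 0.71 (adjusted p = 1.09e-06 and 6.19e-06). CX3CL1, the membrane-bound chemokine fractalkine, fell from 16.7 ± 0.5 to 10.9 ± 0.5 and 11.1 ± 0.8 FPKM, by 0.62 and 0.59 (adjusted p = 8.30e-07 and 1.20e-06). EFNA1, an ephrin ligand, fell from 42.4 ± 0.8 to 30.4 ± 1.1 and 35.2 ± 1.0 FPKM, by 0.48 and 0.27 (adjusted p = 1.46e-07 and 2.56e-05).

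**Figure D4:**
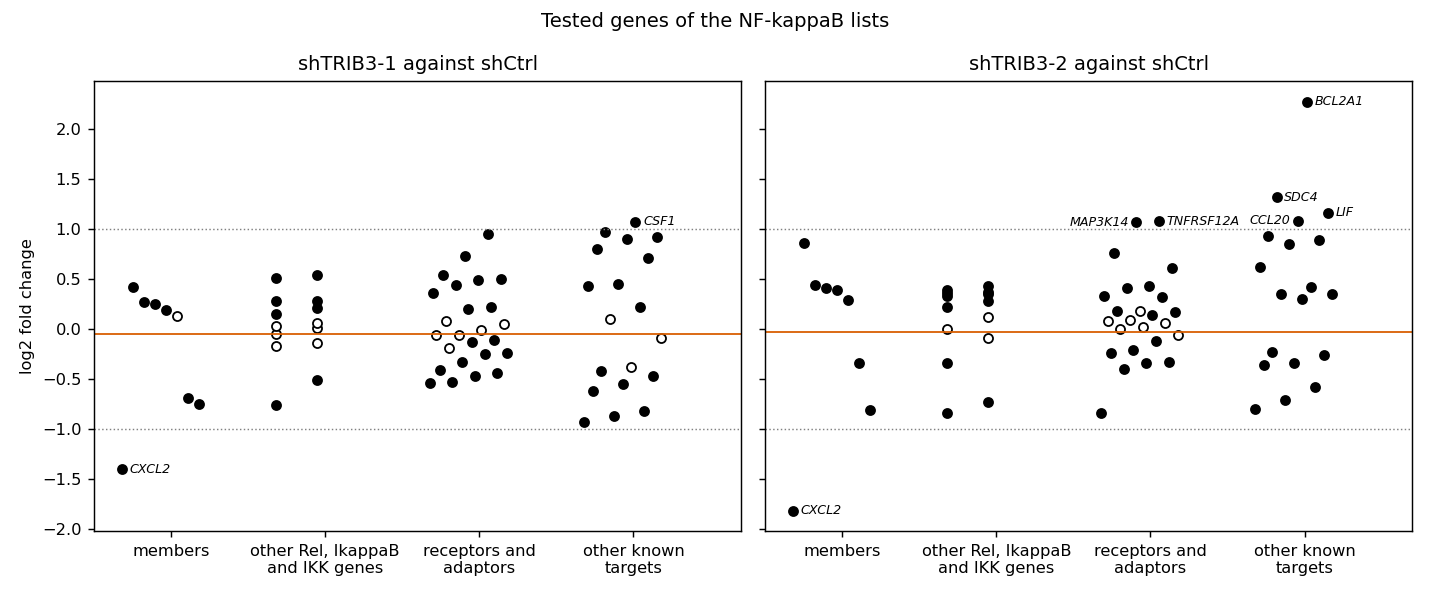
Log2 fold changes of the tested members and of 3 of the wider lists with each hairpin against shCtrl, 1 point per gene, filled where the adjusted p was under 0.05. The orange line is the median of all tested genes, dotted lines mark a change of 1, and called genes are named. Each list spreads on both sides of the median, and CXCL2 is the only named gene below it.

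Of 12 other CXC chemokines, 6 were in the table and CXCL16 alone was tested. CXCL16, a transmembrane chemokine and the ligand of CXCR6, was named after its values were seen. It stood at 31.0 ± 1.1 FPKM in shCtrl, 28.3 ± 0.6 with shTRIB3-1 and 37.5 ± 0.9 with shTRIB3-2 (SD, n = 3). It fell by 0.13 (adjusted p = 0.00419) with shTRIB3-1, which was lost with median-centring (-0.05, 0.233), and rose by 0.27 (adjusted p = 1.49e-05) with shTRIB3-2. Of 8 receptors for CXC ligands, 6 were in the table and none reached the filter, so no test was made.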

How the data were processed

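The deposited values were FPKM per gene and library, made by the authors. The study's methods state alignment of paired-end reads by STAR, to GRCh38. The submitters' processing notes also name HTSeq and R 3.2.0 with no role, and the annotation release and the strand setting of the counting are not given in the sources used here. The methods describe a NEBNext kit that keeps the strand, while the labels name a VAHTS kit, so whether these libraries are stranded is uncertain. Fragments per library were recovered from the FPKM steps, and 99.9728% of 172769 values above 0 came within 0.02 of a whole number. Genes with FPKM of at least 1 in at least 3 of 9 libraries (11265 of 24204) were tested as log2(FPKM + 0.1) with limma 3.58.1 in R 4.3.3 (empirical Bayes with a mean-variance trend, 3 group means, two-sided, Benjamini-Hochberg over all tested genes). This scale understates changes of low genes. FPKM does not correct for composition. Groups follow the labels. Replicates differed by more than sampling noise. The scripts were tested on simulated data. The members and lists were chosen with earlier results of these data known. The text names all members, TRIB3, up to 6 called genes per wider list and the 3 genes most like the member with the widest range, and says where a gene was chosen after its values were seen. Alternatives were a pseudocount of 1, no filter, FPKM of at least 5, median-centring, TPM, voom on recovered fragments, a replicate block and leaving out each library.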

Additional observations from a re-analysis of the deposited data

Results flagged for a closer look

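The hairpins' effects differed by the test of shTRIB3-2 against shTRIB3-1 for 4 of 8 members in the filtered limma fit, where 45.8% of all genes differed. On the log2 scale, shTRIB3-2 was higher by 0.22 for NFKB2, by 0.35 for NFKBIA, by 0.13 for TNFAIP3 and by 0.73 for CXCL8. In the fit of all genes, where 21.1% differed, CXCL5 differed by -1.51. TRIB3 itself differed by -0.71. Among the other pathway genes named by rule, BCL2A1 differed by 1.47 and PLAU by 1.00. In the filtered fit SDC4 also differed by 0.40, TNFRSF12A by 0.35, LIF by 0.20, CCL20 by 0.18 and CSF1 by -0.18. MAP3K14 did not pass (adjusted p = 0.177). CXCL5 lay above the control in 3 of 3 libraries of shTRIB3-1 and below it in 3 of 3 of shTRIB3-2, at 0 to 28 fragments a library. With 3 libraries a group, no single library was tested as an outlier.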

How the results depend on the processing

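Over 27 fold changes of members and 414 values under alternatives, 400 kept their direction and their side of the threshold, 6 lost it, 4 gained it and 4 changed sign. Runs in which a gene was not fitted gave no value and are not among these. Each comparison therefore had 12 values for CXCL2 and 14 for CXCL5, where the other members counted had 16. CXCL2 dropped out with FPKM of at least 5 and without any 1 control replicate. The called members, 1 with each hairpin, came to 0 with a pseudocount of 1 and with FPKM of at least 5, and to 0 to 1 when a library was left out. Without the filter, CXCL5 gave 1 called member between the hairpins. The wider lists' count with shTRIB3-1 was 0 with a pseudocount of 1, 3 without the filter, 3 with median-centring and 1 to 2 with a library left out. Between the hairpins it was 0 with a pseudocount of 1, 0 with FPKM of at least 5, 1 with median-centring and 1 to 2 with a library left out. The differences between hairpins that changed sign were near 0. With a library left out, RELA ranged from -0.002 to 0.082, RELB from -0.022 to 0.058, NFKBIZ from -0.009 to 0.092, CX3CL1 from -0.012 to 0.092 and REL from -0.009 to 0.167, and RELB was -0.008 with median-centring. REL with shTRIB3-2 against shCtrl ranged from -0.156 to 0.019.

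The sources do not say whether the numbers in the replicate names pair the libraries. Correlations of the deviations of same-numbered libraries ran from -0.07 to 0.09, and those of differently numbered ones from -0.08 to 0.05. Between the hairpins, same-numbered libraries had 0.09, 0.06 and 0.03, and the others at most 0.01. Between shCtrl and shTRIB3-1, same-numbered libraries had 0.039, 0.035 and 0.023, and the others at most 0.002. Between shCtrl and shTRIB3-2 they had -0.07, 0.004 and -0.01, and the others up to 0.05. These correlations do not settle whether the libraries are paired. With a replicate block, the difference of CXCL2 between the hairpins (-0.41) had an adjusted p of 0.0469, the counts of called members were 1, 1 and 0, and no other call of a named gene changed. Counting error limits CXCL1, CXCL2 and CXCL5.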
